A study of Mus musculus with 2 samples.

Results

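The cytosolic heat shock chaperones examined here are 10 mouse genes chosen by symbol, with earlier results of these data known: the small heat shock proteins Hspb1 and Hspb8, the HSP110 gene Hsph1, the HSP70 family genes Hspa1a, Hspa1b, Hspa8 and Hspa4, the J-domain gene Dnajb1, and the HSP90 genes Hsp90aa1 and Hsp90ab1. Probe sets were taken as members where the platform annotation gave 1 of these symbols. This found 23 probe sets for 9 of the 10 genes, among 22626 probe sets and 12393 named genes on the array, and Hsp90ab1 was not analysed here. Liver RNA came from mice that lack apolipoprotein E, and every group was fed a high-fat diet. The sample titled orujo, called the orujo array here, came from a diet enriched in olive oil's unsaponifiable fraction (its minor components other than fatty acid esters). The sample titled olive, called the olive oil array, came from a diet enriched in olive oil itself. Each diet is represented by 1 Affymetrix array. The sources used here do not give the age, sex or number of the animals, or whether their RNA was pooled. With 1 array per diet there is no replicate and no test of the diets, so every ratio below compares these arrays only.

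Molecular chaperones bind unfolded or partly folded proteins and keep them from aggregating. HSP70 proteins hold short exposed stretches in cycles of ATP hydrolysis that J-domain proteins start and exchange factors such as the HSP110 proteins reset, HSP90 proteins finish the folding of kinases and nuclear receptors, and small heat shock proteins hold unfolded chains without using ATP. Inducible forms are made in quantity when heat or other proteotoxic stress frees the transcription factor HSF1, which binds inverted repeats of GAA in their promoters, while constitutive forms are made in unstressed cells as well. Hspb1, Hspb8, Hsph1, Hspa1a, Hspa1b, Dnajb1 and Hsp90aa1 were taken as inducible, and Hspa8, Hspa4 and Hsp90ab1 as constitutive.

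The promoters of Hspa1a, Hspa1b and Hspb1 are shown because they hold the inverted repeat upstream of the start and because Hspa1b and Hspb1 gave some of the lowest ratios. RefSeq promoter windows of assembly GRCm38.p6, from 250 bases before to 50 after the annotated start, matched 7 of the 10 genes by symbol. The motif GAANNTTC, which reads the same on both strands, was present in 6 of 9 windows of these genes (5 of 7 genes), against 7.86% of all 32851 windows. The 150 bases before the start follow, 5′ to 3′ on the gene's strand, with each match in capitals. They lie at chr17:34972157-34972306 (minus strand), chr17:34959239-34959388 (minus strand) and chr5:135887769-135887918 (plus strand).
Hspa1a: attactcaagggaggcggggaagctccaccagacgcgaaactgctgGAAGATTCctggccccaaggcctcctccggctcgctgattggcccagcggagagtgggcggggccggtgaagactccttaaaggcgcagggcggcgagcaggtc
Hspa1b: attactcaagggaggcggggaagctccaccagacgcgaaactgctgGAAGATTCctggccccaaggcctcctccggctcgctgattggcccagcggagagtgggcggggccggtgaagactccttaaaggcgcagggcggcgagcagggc
Hspb1: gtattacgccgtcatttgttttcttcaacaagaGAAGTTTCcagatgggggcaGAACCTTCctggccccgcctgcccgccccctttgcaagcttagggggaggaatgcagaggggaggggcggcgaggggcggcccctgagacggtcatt

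The Hspa1a and Hspa1b windows are near copies: they differ at 1 of the 150 bases shown and at 4 of all 300. In both, the match begins 104 bases before the start. Hspb1 holds 2 matches, which begin 117 and 97 bases before it. In Hspb8 and in both windows of Hsph1 the matches lie after the start, at base 3 in Hspb8 and at bases 21 and 42 in Hsph1, whose windows overlap and hold the same site, counted once per window. Hsph1 is also the 1 member gene with the longer motif GAANNTTCNNGAA (searched on both strands, and always holding the shorter one), which 0.603% of all windows hold. No exact match of either motif was found in the windows of Dnajb1 and Hspa4, and looser matches were not searched. A match describes the sequence and was not tested as a binding site.

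Across the members, signal was lower on the orujo array for 20 of 23 probe sets and higher for 3. The intensities deposited by the authors were scaled to a common trimmed mean, and a probe set is called measured when its scaled intensity passed 35.6 on both arrays, the median of all scaled intensities, which serves as a floor on low values because no detection calls were used here. Log2 ratios are given as orujo minus olive oil, so a negative ratio is a lower signal with that fraction in the diet. Of the 21 measured member probe sets, 8 were at least 2-fold lower and 0 at least 2-fold higher. Over all 10462 measured probe sets of the array, 1.08% were at least 2-fold lower and 1.36% at least 2-fold higher. By gene, with each gene read from its brightest probe set, 3 of 8 measured members were at least 2-fold lower, against 0.979% of all 6640 measured genes. At 1.5-fold, 14 of the 21 probe sets and 6 of the 8 genes were lower, against 5.59% and 5.56% over the array. At 3-fold, 3 probe sets and 1 gene were lower, against 0.373% and 0.331%.

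**Figure D1:**
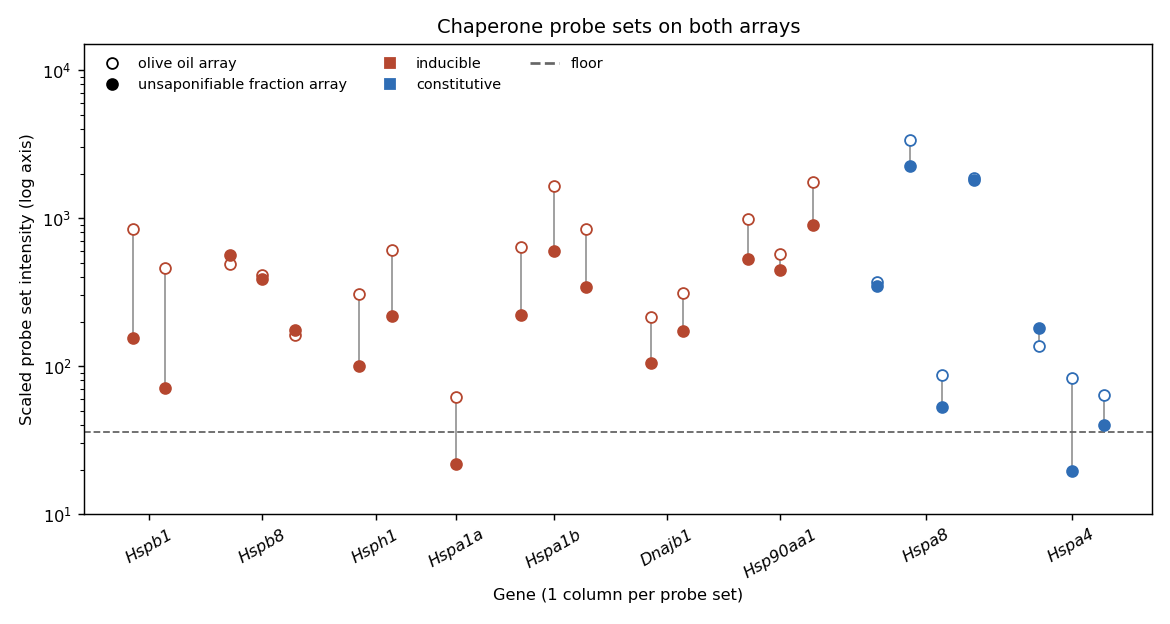
Scaled intensity on a log axis for each of the 23 member probe sets, with the olive oil array as open and the orujo array as filled points, inducible genes in red, constitutive genes in blue and the floor of 35.6 as a dashed line. The filled point lies below the open one in 20 of 23 columns, and the gap is widest for Hspb1 among the measured probe sets.

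Liver RNA was the labelled source, and 8 of 8 hepatocyte markers with a probe set were measured, with a median log2 ratio of 0.03. Digestive enzyme transcripts of the exocrine pancreas were present as well: 11 of 12 markers with a probe set were measured, all 11 were at least 2-fold lower on the orujo array, and their summed scaled intensity was 1034 there against 6637 on the olive oil array. The ratio of the 3′ to the 5′ control probe set for ribosomal 18S RNA was 2.40 on the orujo array and 11.0 on the olive oil array, while that for Gapdh was 0.885 and 0.906. It was also lower on the orujo array for beta-actin (1.15 and 1.36) and pyruvate carboxylase (2.74 and 3.24). Of 8 muscle markers 2 were measured, Acta2 at −0.68 and Tagln at −0.38, and the 6 below the floor on both arrays include the skeletal muscle genes Acta1, Ckm, Myh4, Tnnt3 and Myl1. Neutrophil markers summed to 3685 and 762, of which Lcn2, also an acute phase gene of hepatocytes, gave 3308 and 400.5. Kupffer cell, endothelial and stellate cell markers had medians of 0.31 over 10 measured genes, 0.12 over 5 and 0.01 over 5, while 0 of 5 cholangiocyte markers and 1 of 4 adipocyte markers were measured. None of these markers was listed at 0 on either array. The part of pancreatic RNA, RNA quality and other cell types in the chaperone ratios was not tested. In whole liver, fewer cells of a type and less RNA per cell cannot be told apart.

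Hspb1 had the lowest ratios of the family. It encodes HSP27, a small heat shock protein that binds unfolding proteins and actin. Its brighter probe set had a scaled intensity of 154 on the orujo array against 848 on the olive oil array, which is 5.51-fold lower (log2 ratio −2.46). The other read 71.4 against 458, 6.41-fold lower (−2.68). The probe sets differed from each other by 0.22 on the log2 scale, and both lay above the floor on both arrays. Among 6640 measured genes, counted from the lowest ratio, Hspb1 had rank 10.

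Hspb8, the other small heat shock protein gene, was at nearly the same level on both arrays. It encodes HSP22, which works with the exchange factor BAG3 in the selective autophagy of misfolded proteins. Its 3 probe sets read 559 against 488 (log2 ratio 0.20), 390 against 415 (−0.09) and 174 against 161 (0.11), with the orujo array first in each pair. All 3 ratios were smaller than 0.31, the SD of a single probe set's log2 ratio derived from 1453 genes with exactly 2 measured probe sets. That SD holds any differences between probe sets of a gene within these arrays. It misses error that they share and holds no variation between animals. Of 5 other small heat shock protein genes with a probe set, namely Cryab, Cryaa, Hspb2, Hspb3 and Hspb7, 0 passed the floor on both arrays.

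Hspa1b encodes an inducible HSP70 that is nearly silent in most unstressed cells. Its 3 probe sets read 221 against 633, 599 against 1637 and 343 against 840, with log2 ratios of −1.52, −1.45 and −1.29. The signal on the orujo array was thus 34.9% to 40.8% of that on the olive oil array in every one of them. Hspa1a, its neighbouring near-copy, had 1 probe set, at 21.8 against 61.9. Only the olive oil value passed the floor, so the signal was at least 1.74-fold lower on the orujo array. Because transcripts of these genes are nearly identical, probe sets named for either may read both, and the Hspa1a and Hspa1b values are not separate measurements of each gene with certainty.

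Hsph1, which encodes an HSP110 protein that exchanges nucleotide on HSP70 and helps it pull aggregates apart, gave ratios like those of Hspa1b. The probe sets read 218 against 604 and 101 against 305, which is 2.77-fold and 3.03-fold lower on the orujo array (log2 ratios −1.47 and −1.60). Hsph1 and Hspa1b held ranks 27 and 28 from the lowest of all measured genes. Their ratios were closer to each other than the SD of a single probe set. Hspa4, an HSP110-related gene that is made constitutively, had probe sets that differed in direction. Its brightest probe set was higher on the orujo array, at 182 against 136 (0.42). A dimmer one was lower, at 39.9 against 63.9 (−0.68), and the remaining one read 19.6 against 82.6, at least 2.32-fold lower against the floor. The Hspa4 ratios spanned 1.10 log2 units, a span wider than that of 97.1% of the 2057 genes with at least 2 measured probe sets, so the gene has no settled direction here.

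Dnajb1 encodes HSP40, the inducible J-domain protein that delivers substrates to HSP70. It read 174 against 313 in one probe set and 104 against 213 in the other, which is 1.80-fold and 2.05-fold lower on the orujo array (log2 ratios −0.85 and −1.03). These values fall on either side of the 2-fold limit. The brighter one ranked 116 from the lowest of all measured genes.

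Hsp90aa1, the inducible HSP90 gene, was lower in each of its 3 probe sets, though by different amounts. The probe sets read 903 against 1745, 529 against 986 and 443 against 570, with log2 ratios of −0.95, −0.90 and −0.36. None passed 2-fold with the scaling used here, and the brightest ranked 74. With quantile or loess normalization its ratio was −1.02, just past the limit. No HSP90 gene of the constitutive kind was available for comparison.

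Hspa8, which encodes the constitutive HSC70 that also drives chaperone-mediated autophagy, was read by 4 probe sets that fell into pairs. A pair was lower on the orujo array, at 2232 against 3386 (log2 ratio −0.60) and 53.2 against 87.5 (−0.72). The others were near 0, at 347 against 371 (−0.09) and 1794 against 1874 (−0.06). Those at −0.60 and −0.06 carry a suffix that marks sequence shared with other transcripts. Without such probe sets the gene is read at −0.09, so the size of its ratio rests on the choice of probe set.

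Taking inducible against constitutive forms, the median log2 ratio was −1.20 over 6 measured inducible genes and −0.09 over 2 measured constitutive genes, while over all measured genes it was −0.02. The difference of the medians was −1.11, but 2 genes with discordant probe sets make the constitutive side thin. Read from each gene's dimmest measured probe set, the constitutive median was −0.70 and the difference −0.58, and without probe sets of shared sequence they were 0.16 and −1.28. By probe set, 13 of 15 measured inducible ones had a negative ratio and 8 were at least 2-fold lower. Among 6 measured constitutive ones, 5 had a negative ratio and 0 were at least 2-fold lower. That count leaves out the constitutive Hspa4 probe set below the floor on the orujo array only, which was at least 2.32-fold lower. The inducible count likewise leaves out that of Hspa1a, at least 1.74-fold lower. Over all measured probe sets 51.4% had a negative ratio. Hspb8 alone among the inducible genes was near 0: without it (an alternative chosen after seeing the data) the 12 inducible probe sets lay between −2.68 and −0.36.

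**Figure D2:**
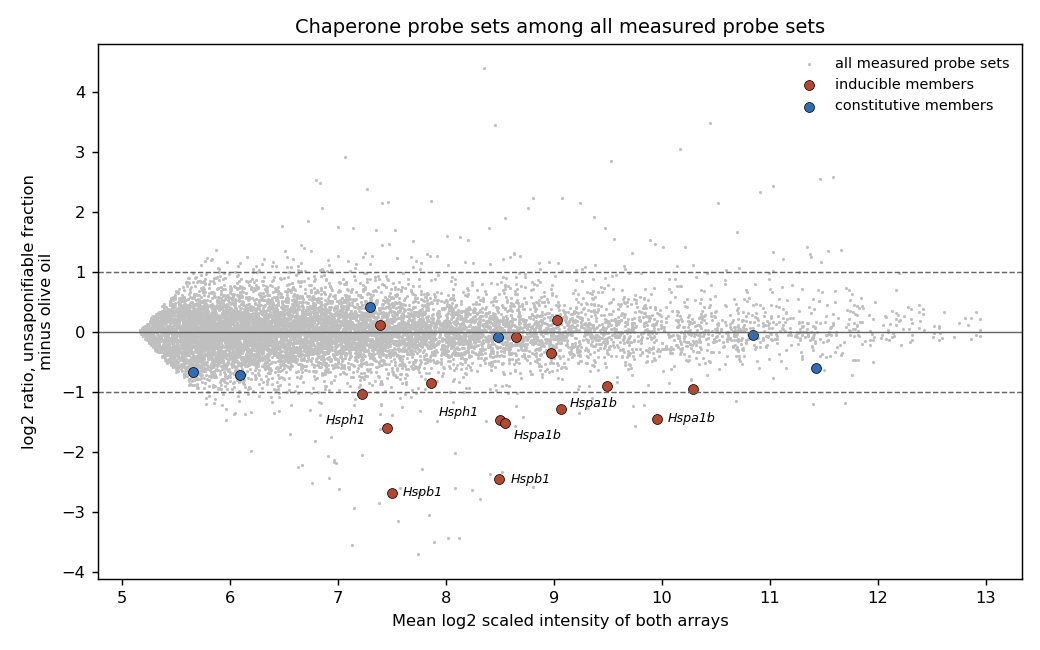
The log2 ratio (unsaponifiable fraction, the orujo array, minus olive oil) against the mean log2 scaled intensity of both arrays, for all 10462 measured probe sets in grey, inducible members in red and constitutive members in blue, with dashed lines at 2-fold. The 7 labelled probe sets, of Hspb1, Hsph1 and Hspa1b, lie below the lower dashed line and Hspb8 lies near 0.

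Agreement between probe sets also set some members apart from single-probe-set calls. Of 2057 genes with at least 2 measured probe sets, 10 were at least 2-fold lower in every one of them (0.486%), and 3 of these were Hspb1, Hsph1 and Hspa1b. The others, named after their values were seen, were the pancreatic enzyme genes Prss2, Cela3b and 2210010C04Rik, the glutathione genes Gstm1, Gstm3 and Gclc, and the clock output gene Dbp. The dimmer Hspb1 probe set (−2.68) and the brightest Hspa1b one (−1.45) carry the suffix of shared sequence. Without such probe sets Hspb1 is read at −2.46, from its remaining probe set, and Hspa1b at −1.29. Probe sets of a gene share RNA, labelling and hybridisation, and they are not replicates of the diet.

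Lists of related genes covered other cytosolic chaperones and cochaperones, mitochondrial chaperones, heat shock factors and their regulators, other targets of these factors and the cold-inducible Cirbp. In all, 62 of 78 such genes with a probe set were measured. Of these, 37 had a negative ratio (52.5% did over all measured genes), and the median was −0.10. At 1.5-fold, 6 of the 62 were lower, against 5.56% of all measured genes, and 2 were higher. The share of all genes at least 1.5-fold higher was not calculated. At 2-fold, 2 of the 62 were lower, against 0.979% of all measured genes, and 0 were higher. Of the genes at least 2-fold lower, 1 was Fkbp4, which encodes the immunophilin FKBP52 that sits on HSP90 with steroid receptors. It read 130 against 279 (−1.10) in its only measured probe set. For the listed genes here and below, any other probe set that is given is a measured one. Hspa4l, an HSP110-related gene, was the other, at 38.4 against 81.2 (−1.08), with −0.79 in a second probe set and a level close to the floor on the orujo array. Hspa2, the other measured gene in the list of further cytosolic HSP70 and HSP110 genes, was at 0.12. It read 42.7 against 39.3, close to the floor on both arrays.

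HSP90 cochaperones had a median of −0.16 over 12 measured genes, with 9 negative. Besides Fkbp4, the list held Sugt1, which couples HSP90 to kinetochore assembly, as its highest member (0.73), and the HSP90-binding gene Chordc1 at −0.57. J-domain cochaperones other than Dnajb1 had a median of −0.25 over 9 genes, with 5 negative and 0 past 2-fold. Dnajc2, a ribosome-bound J-domain gene, was lowest at −0.75 but had 0.42 in its other probe set, and Dnaja2 was highest at 0.49, while Dnajb4 was at −0.40. HSP70 exchange factors and adaptors had a median of −0.01 over 9 genes and 0 past 1.5-fold. They ranged from St13, the HSP70-interacting protein HIP, at −0.31 to Bag5 at 0.25, with Bag6 at 0.24.

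The cytosolic chaperonin and prefoldin genes, which fold actin and tubulin, had a median of −0.26 over 11 genes, with 8 negative and 0 past 2-fold. Pfdn5 was lowest at −0.65, with −0.05 in its other probe set. Cct7 was at −0.59, with 0.47 in its other probe set, and Cct6a was highest at 0.36. Mitochondrial chaperones and proteases, which serve a separate compartment, had a median of −0.02 over 12 genes, from Clpb at −0.69 (−0.02 in its other probe set) to Clpx at 0.62, with Hscb at −0.41. Their main chaperonin genes Hspd1 and Hspe1, named after their values were seen, read 1874 against 1650 (0.18) and 955 against 968 (−0.02). Endoplasmic reticulum chaperones had a median of −0.30 over 14 genes, with 11 negative. At 1.5-fold, 5 of the 14 were lower, against 5.56% of all measured genes, and 0 were higher, with no all-gene share calculated for higher. Of the 14, 1 was at least 2-fold lower, against 0.979% of all measured genes. It was Pdia4, at −1.42, with −0.19 in its other probe set. Hyou1, named after its values were seen, was at −0.67, while its other probe set was just past 2-fold lower. Dnajc3 was the highest at 0.41, and Creld2 was at −0.85.

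**Figure D3:**
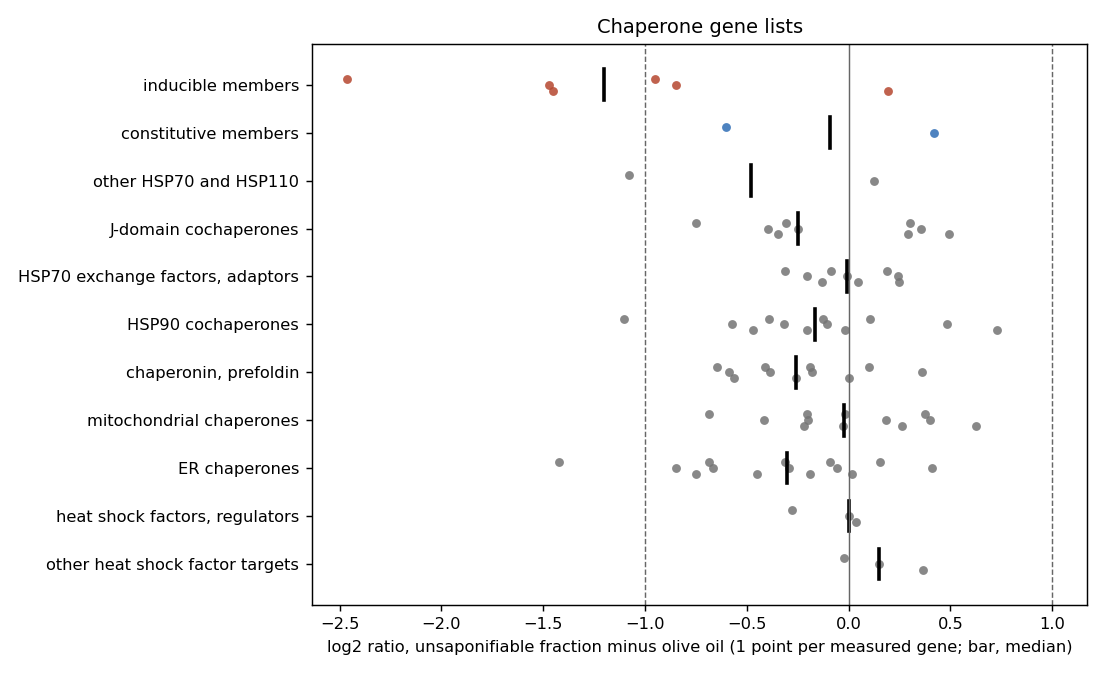
The log2 ratio (unsaponifiable fraction, the orujo array, minus olive oil) of each measured gene by list, with 1 point per gene, a black bar at each list's median and dashed lines at 2-fold. Inducible members have their median at −1.20, and the lists of other chaperone and cochaperone genes have medians between −0.48 and −0.01.

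Regulators of the heat shock response were near 0 where they were measured. Hsf2 and Hsf4, which encode heat shock factors, were below the floor on both arrays, and Hsf1 was not analysed here. Hsbp1, which encodes a protein that binds HSF1, was at −0.28 with 0.30 in its other probe set, Hdac6 at 0.04 and Vcp at 0.00. Among other genes known as targets of heat shock factors, 4 had a probe set and 3 were measured: Hmox1 was at 0.15, Dedd2 at 0.36 and Serpinh1, a collagen chaperone, at −0.02. Ier5, the remaining one, was below the floor on the orujo array only, at least 1.70-fold lower. Cirbp, an RNA-binding protein gene induced by mild cold, read 84.5 against 56.6 (0.58), and Rbm3 was not analysed here.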

How the data were processed

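The table holds probe set intensities on a linear scale, deposited by the authors for 2 arrays; the sources used here do not name the summary software or give detection calls. Per the labels' protocols, targets were made from about 8 µg of total RNA. The 2% trimmed mean of the deposited intensities was 100.05 on both arrays, so an array-wide shift cannot be seen. Without the 64 control probe sets, each array was scaled by its trimmed mean, values were floored at the 50th percentile of both arrays (35.6), and log2 was taken. Probe sets with several symbols (691) or none (1555) named no gene. Each gene was read from its brightest probe set by mean log2. Members and lists were chosen with earlier results of these data known. Named genes are all members, and from each other list the highest, the lowest and the next largest in size, with Hsf1, Hsf2, Cirbp and Rbm3. The steps were tested on simulated data, with changes planted in bright probe sets only and larger than most member ratios. Recovery of smaller changes or of changes in dim probe sets was not tested. Python 3.11.15, numpy 2.4.6 and pandas 2.3.3 were used. Alternatives were other scalings, floors, limits, a pseudocount and other choices of probe set.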

Additional observations from a re-analysis of the deposited data

How the results depend on the processing

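No paired analysis was possible because each diet has 1 array. The count of member genes at least 2-fold lower (3) was 3 or 4 under every alternative to the scaling, the floor and the choice of probe set. The limit itself moved the counts: 6 genes and 14 probe sets were lower at 1.5-fold, and 1 gene and 3 probe sets at 3-fold. With the dimmest measured probe set of each gene, the constitutive median was −0.70 and the inducible minus constitutive difference −0.58, against −0.09 and −1.11. Without probe sets of shared sequence the constitutive median turned to 0.16 and the difference was −1.28, so the sign of the constitutive median, which ran from −0.70 to 0.16, depends on the probe set. The inducible median stayed between −1.45 and −1.12 over the alternatives. Ratios of single genes moved by more than the SD of a single probe set in 4 of 80 recalculations. All were by choice of probe set: Hspa4 (−0.13 and −0.68), Hspa8 (−0.09) and Hsp90aa1 (−0.36). With 1 array per diet, no error between animals can be given for any value.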

Other observations

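The GAANNTTC motif was also read across the array. Of 403 measured genes with the motif in a RefSeq promoter window, 10 (2.48%) were at least 2-fold lower with the unsaponifiable fraction, and 4 (0.993%) were at least 2-fold higher. Of 5033 measured genes whose windows lack it, 42 were at least 2-fold lower (0.834%) and 63 at least 2-fold higher (1.25%). With the chaperone members left out, 7 of 399 genes with the motif were at least 2-fold lower (1.75%). Of these, the HSP90 cochaperone gene Fkbp4, at 2.15-fold, was the only one on the chaperone lists. The others were Ces1g, Dock8, Gstm6, Il20, Net1 and Pla2g6, and Il20 lay close to the floor on the orujo array (39.9). The median log2 ratio was 0.01 with the motif and −0.02 without it, so genes with the motif were not lower by their median. The difference in shares was not tested. The longer motif GAANNTTCNNGAA was found for 33 measured genes. The member Hsph1 alone was at least 2-fold lower (3.03%), against 0.944% of measured genes whose windows lack this motif. At least 2-fold higher were 0 of the 33, against 1.24%. With the members left out, 0 of 32 were at least 2-fold lower.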
